A study of Mus musculus with 8 samples.

Results

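Transcription factor genes that direct the making of megakaryocytes and platelets were followed in platelet RNA, 10 in all: Gata1, Fli1, Nfe2, Runx1, Tal1, Gfi1b, Zfpm1, Mafg, Lyl1 and Etv6. They were taken by symbol from the deposited tables, which list 55487 genes, and all 10 had a row and passed the filter on low counts that kept 7362 genes for testing. Platelets came from the blood of 13-week-old male mice, 4 labelled wild type (WT) and 4 littermates labelled heterozygous for Dnmt3a (Dnmt3a+/-), which encodes an enzyme that sets new DNA methylation. The sources used here do not give how the Dnmt3a allele was made or in which cells it acts. After cardiac puncture, platelets were spun out of plasma and depleted of red cells and leukocytes with Ter119 and CD45 beads, and polyadenylated RNA was sequenced in 1 library per mouse. The title of the study concerns megakaryocyte-biased stem cell fate, and the comparison of the genotypes asks whether platelet RNA differed between them.

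Platelets have no nucleus, and their RNA is what the megakaryocyte passed on when it shed them. A factor's RNA in a platelet is therefore a remnant of the parent cell, and its level reflects both what was packaged and how long it has lasted since. In the megakaryocyte, GATA1 binds DNA with its partner FOG1 (encoded by Zfpm1), TAL1 and LYL1 bind as basic helix-loop-helix proteins, RUNX1 and the ETS factors FLI1 and ETV6 act on many of the same genes, GFI1B represses, and NF-E2, a pair of the NFE2 protein with a small MAF protein such as MAFG, drives the late genes of platelet release. Inherited defects of several of them, RUNX1, GATA1, FLI1, ETV6, GFI1B and NFE2 among them, are known causes of low platelet counts or of malfunctioning platelets.

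The 4 promoter windows below are shown because the comparison concerns a DNA methyltransferase and the factors' promoters differed widely in CpG, the dinucleotide it methylates. DNA methylation was not measured in these libraries. The windows are RefSeq's on GRCm38.p6, 300 bases from 250 before to 50 after the transcription start, printed in the direction of transcription with every CG in capitals. Gata1 has 4 CG dinucleotides in its window at chrX:7967861-7968160 (minus strand). Runx1 has 2 windows, the distal one at chr16:92826025-92826324 with 2 and the proximal one at chr16:92697280-92697579 with 35 (both minus strand). Mafg has the most among the factors with a window, 39, at chr11:120633498-120633797 (minus strand).
Gata1: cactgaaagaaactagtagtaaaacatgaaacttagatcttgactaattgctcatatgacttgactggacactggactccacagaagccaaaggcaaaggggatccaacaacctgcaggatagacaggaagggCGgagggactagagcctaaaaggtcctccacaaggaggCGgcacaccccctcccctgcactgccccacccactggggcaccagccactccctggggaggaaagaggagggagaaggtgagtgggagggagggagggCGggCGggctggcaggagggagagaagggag
Runx1 distal: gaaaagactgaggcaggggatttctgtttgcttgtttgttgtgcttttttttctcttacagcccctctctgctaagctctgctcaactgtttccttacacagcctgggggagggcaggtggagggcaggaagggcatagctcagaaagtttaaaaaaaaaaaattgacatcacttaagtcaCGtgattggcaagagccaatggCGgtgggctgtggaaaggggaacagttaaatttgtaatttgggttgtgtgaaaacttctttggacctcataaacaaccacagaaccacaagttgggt
Runx1 proximal: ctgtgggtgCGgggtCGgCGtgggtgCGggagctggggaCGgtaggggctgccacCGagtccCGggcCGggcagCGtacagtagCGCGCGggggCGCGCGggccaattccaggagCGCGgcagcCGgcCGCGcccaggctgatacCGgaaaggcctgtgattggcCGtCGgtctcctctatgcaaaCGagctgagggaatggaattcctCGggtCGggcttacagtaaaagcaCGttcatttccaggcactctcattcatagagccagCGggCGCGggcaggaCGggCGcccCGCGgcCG
Mafg: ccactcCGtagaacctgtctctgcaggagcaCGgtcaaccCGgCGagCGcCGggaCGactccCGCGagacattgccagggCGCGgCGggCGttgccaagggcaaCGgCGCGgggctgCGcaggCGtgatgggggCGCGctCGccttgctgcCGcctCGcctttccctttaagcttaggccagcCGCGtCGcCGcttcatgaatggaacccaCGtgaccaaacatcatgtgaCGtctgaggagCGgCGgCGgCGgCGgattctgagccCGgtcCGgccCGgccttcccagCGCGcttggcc

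Windows were found for 8 of the 10 factors, all but Nfe2 and Fli1, and there were 10 windows in all. Across all 32851 windows of this length the median was 7 CG dinucleotides. Mafg, Zfpm1 (37) and the proximal window of Runx1 (35) stood at percentiles 95.6, 94.4 and 93.05 of them. At the other end stood the distal window of Runx1 at percentile 14.1 and Gata1 at percentile 31.4. Gfi1b and Lyl1 each had 7, Etv6 had 17, and the 2 windows of Tal1 had 11 and 22. A set of 6 short motifs of these factor families was searched on both strands. The GATA word AGATAA was found in 1 of the 10 windows (in a Tal1 window, starting 205 bases before the start) and in 11.2% of all windows. The ETS word CCGGAAG was found in the Lyl1 window and in 8.86% of all windows, and the RUNX word TGTGGT at 2 places in the distal Runx1 window and in 16.8% of all windows. The GFI word AAATCA was found in the windows of Gfi1b and Etv6 and in 14% of all windows. Neither CAGCTG, bound by basic helix-loop-helix factors, nor TGAGTCA, the core bound by NF-E2, was found in any of the 10, and they were found in 16.3% and 5.2% of all windows.

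The libraries held 15185218 to 22160394 counts each, and the 10 factors together took 0.0580% to 0.0796% of them in WT and 0.0702% to 0.0787% in libraries with the Dnmt3a+/- label. Platelet genes were abundant, with mean levels of 18068 TPM for Pf4 (TPM is a level per transcript length, scaled to the same total in every library), 21211 for Ppbp and 2703 for Itga2b, and Ptprc, which encodes CD45, had 4 to 27 counts. The level of Dnmt3a itself in CPM, counts scaled for library size, was 21.1, 22.1, 19.8 and 18.2 for WT replicates 1 to 4. It was 9.96, 11.5, 24.2 and 19.5 for replicates 1 to 4 with the Dnmt3a+/- label. Replicates 1 and 2 labelled Dnmt3a+/- were below all WT libraries and replicates 3 and 4 were not, so the heterozygous group is called by its label throughout. Whether these reads cover the altered part of the gene cannot be told from gene counts. WT replicate 1 had 2.03% of its counts in red cell genes, where the other 7 libraries had 0.203% to 0.487%, and mitochondrially encoded genes took 24.8% in WT replicate 3 and 16.7% to 19.0% elsewhere. The 6 hepatocyte genes listed, such as Alb, took 0.000987% to 0.106% of counts in WT and 2.71e-05% to 0.0107% in libraries with the Dnmt3a+/- label.

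The factors differed widely in the level of their RNA in platelets. Nfe2 RNA was the most abundant, at 338 ± 41.6 TPM (mean ± SD, n = 8 libraries), and Etv6 the least, at 1.03 ± 0.399, a ratio of means of 329. Nfe2 alone made up 68.4% to 72.3% of the factors' summed TPM, which was 354 to 534 per library. Between them stood a middle group (Gata1, Tal1 and Gfi1b) and a group at a few TPM (Fli1, Mafg, Lyl1, Zfpm1 and Runx1).

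**Figure D1:**
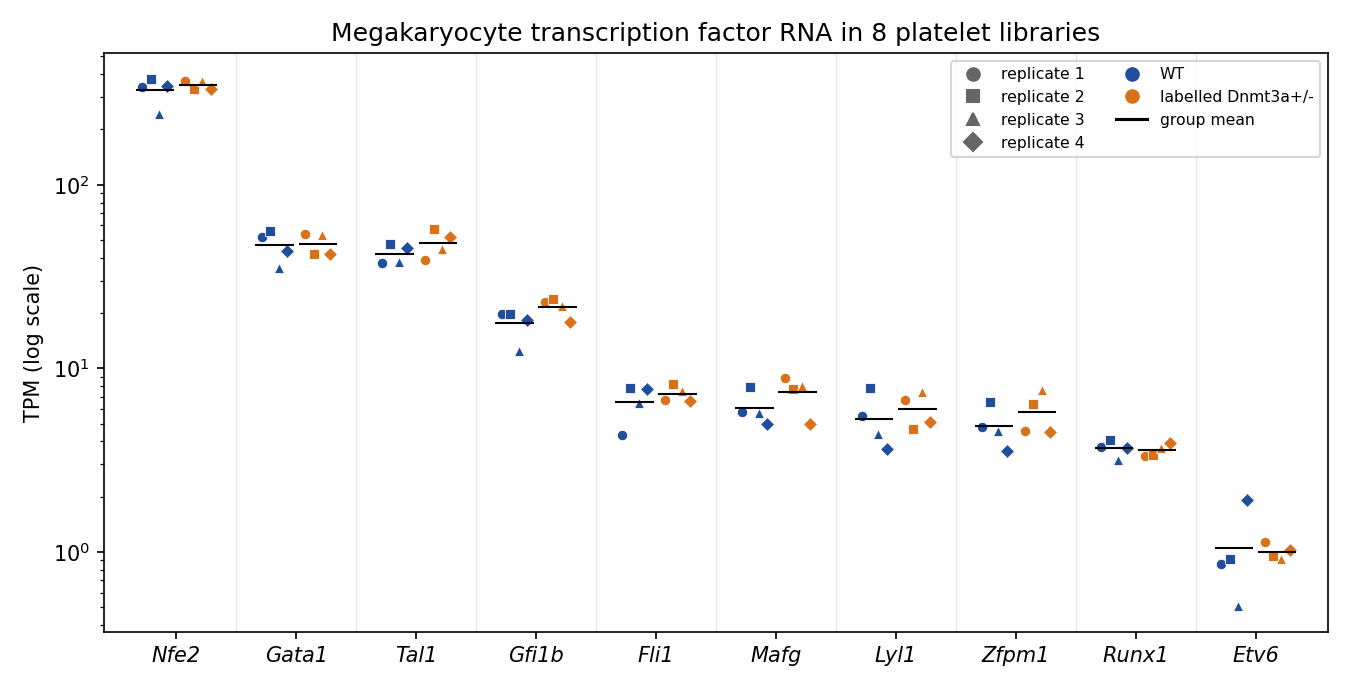
Level of each factor's RNA in TPM (vertical axis, log scale) in the 4 WT libraries (blue) and the 4 libraries labelled Dnmt3a+/- (orange), with the marker shape giving the replicate and a bar the group mean. Nfe2 lies at 243 to 375 TPM in every library, Gata1 and Tal1 at 35.3 to 57.4, and Etv6 at 0.510 to 1.91.

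Nfe2, on chromosome 15 (103248212-103258403, minus strand, as are all gene coordinates here on GRCm38), encodes the large subunit of NF-E2. Its TPM was 342, 375, 243 and 345 in the WT libraries, here and below in the order of replicates 1 to 4, and 366, 334, 365 and 332 in libraries with the Dnmt3a+/- label. WT replicate 3, the library with the high mitochondrial share, was the lowest and the other 7 lay close together. Its rank among all genes of a library was 277 to 329, where 5381 to 5879 genes reached 1 TPM.

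Mafg, on chromosome 11 (120625117-120633600, minus strand), encodes a small MAF partner of NFE2 and was far lower, at 5.81, 7.94, 5.74 and 4.96 TPM in WT and 8.85, 7.69, 8.04 and 4.97 in libraries with the Dnmt3a+/- label. Replicate 4 was at the low end in both groups, and the groups overlapped. The ratio of Mafg to Nfe2 TPM was 0.0144 to 0.0242 over the 8 libraries. Mafg shares 124 exon bases on the same strand with Sirt7, which had 67 to 99 counts against 245 to 421 for Mafg, so a small part of the Mafg count is uncertain.

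Gata1, on chromosome X (7959260-7978071, minus strand), the master factor of megakaryocytes and red cells, was at 51.7, 56.3, 35.3 and 43.6 TPM in WT and 54.0, 42.1, 53.1 and 41.9 in libraries with the Dnmt3a+/- label. The group ranges overlapped almost wholly, and WT held both the highest and the lowest library. Zfpm1, on chromosome 8 (122282141-122337251, plus strand), which encodes the GATA1 cofactor FOG1, was at 4.80, 6.55, 4.54 and 3.56 TPM in WT and 4.54, 6.38, 7.60 and 4.48 in the other group. Its ratio to Gata1 ran from 0.0817 to 0.151. The annotation places Zfpm1 inside the longer gene model Gm20388 on the same strand, which had 1547 to 2284 counts against 91 to 180 for Zfpm1 and shares no annotated exon base with it.

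Tal1, on chromosome 4 (115056426-115071755, plus strand), a basic helix-loop-helix factor needed for blood cells to form at all, was at 37.6, 47.8, 37.97 and 45.1 TPM in WT and 38.9, 57.4, 44.6 and 51.7 in libraries with the Dnmt3a+/- label. Replicates 2 and 4 labelled Dnmt3a+/- were the 2 highest of the 8. Its close relative Lyl1, on chromosome 8 (84701457-84704715, plus strand), stood at 5.52, 7.78, 4.38 and 3.64 TPM in WT and 6.75, 4.67, 7.45 and 5.11 in the other group, with WT at both ends of the range. Lyl1 to Tal1 was 0.0808 to 0.174 within a library.

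Gfi1b, on chromosome 2 (28609450-28621982, minus strand), a zinc finger repressor that works with the demethylase LSD1, was at 19.8, 19.8, 12.5 and 18.4 TPM in WT. In libraries with the Dnmt3a+/- label it was at 22.9, 24.0, 21.9 and 17.8. In TPM, replicates 1 to 3 lay above every WT library and replicate 4 lay below 3 of the 4. In CPM the order differed, with 28.8, 23.7, 19.0 and 21.5 in WT and 23.2, 24.6, 28.6 and 22.05 in the other group, where WT replicate 1 was the highest of the 8.

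Fli1, on chromosome 9 (32422204-32542861, minus strand), the ETS activator of late megakaryocyte genes, was at 4.32, 7.86, 6.48 and 7.69 TPM in WT and 6.76, 8.25, 7.51 and 6.62 in libraries with the Dnmt3a+/- label. WT replicate 1, the library with the high share of red cell genes, was the lowest. The ETS repressor Etv6, on chromosome 6 (134035700-134270158, plus strand), was at 0.86, 0.92, 0.51 and 1.91 TPM in WT and 1.13, 0.95, 0.91 and 1.02 in the other group, from only 38 to 75 counts per library. WT held both extremes.

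Runx1, on chromosome 16 (92601466-92826149, minus strand), which encodes the DNA-binding subunit of the core-binding factor, was the steadiest, at 3.75, 4.09, 3.16 and 3.68 TPM in WT and 3.35, 3.36, 3.67 and 3.92 in libraries with the Dnmt3a+/- label. All 8 values lay within 1 TPM of each other. The coefficient of variation of its CPM was 6.06% in WT and 9.96% in the other group, where counting error alone gives 5.96% and 5.997%. For Etv6, the least abundant, these were 17.7% and 30.4%, against 14.2% and 12.2% from counting.

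In the order of mean TPM (Nfe2, Gata1, Tal1, Gfi1b, Fli1, Mafg, Lyl1, Zfpm1, Runx1, Etv6), 3 of the 9 pairs of neighbours did not differ by more than their spread over libraries. Gata1 exceeded Tal1 by a mean of only 0.06 log2 TPM within a library (SD 0.34) and in 4 of 8 libraries. Fli1 exceeded Mafg by 0.05 (SD 0.37) in 4 of 8, and Lyl1 exceeded Zfpm1 by 0.09 (SD 0.30) in 5 of 8. The step from Mafg to Lyl1 was about as large as its spread (0.26, SD 0.26, 7 of 8 libraries). Larger steps separated Nfe2 from Gata1 (2.84, SD 0.12), Tal1 from Gfi1b (1.21, SD 0.29), Gfi1b from Fli1 (1.5, SD 0.37) and Runx1 from Etv6 (1.90, SD 0.49), each in all 8 libraries, and Zfpm1 exceeded Runx1 by 0.51 (SD 0.37) in 7 of 8.

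Set against the other genes of their own DNA-binding families, most of the factors were the leading member, and the ETS factors were not. A list of 28 family relatives was used. Gata2, the GATA factor of stem and progenitor cells, was at 5.83 to 12.5 TPM, below Gata1 in every library, and Gata3 to Gata6 had at most 12 counts in any library. Runx2 and Runx3, the bone and T cell members, had at most 4 counts, and Tal2 had at most 2. Gfi1, the myeloid relative of Gfi1b, was listed at 0 in all 8 libraries, and Zfpm2 reached 3 counts. Among the CNC factors, Nfe2l2, the regulator of the antioxidant response also called NRF2, followed Nfe2 at 17.9 to 37.0 TPM, then Nfe2l1 (mean 4.78) and Bach1 (1.75). Of the MAF genes, Mafk was at 0.470 TPM and Maff at 0.0675, both below Mafg. In the ETS family Elf1, at 12.0 to 22.2 TPM, stood above Fli1 in every library, Elf2 (mean 2.11) lay between Fli1 and Etv6, and Ets1 was at 0.918. Spi1, which encodes the myeloid ETS factor PU.1, had 2 to 9 counts.

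**Figure D2:**
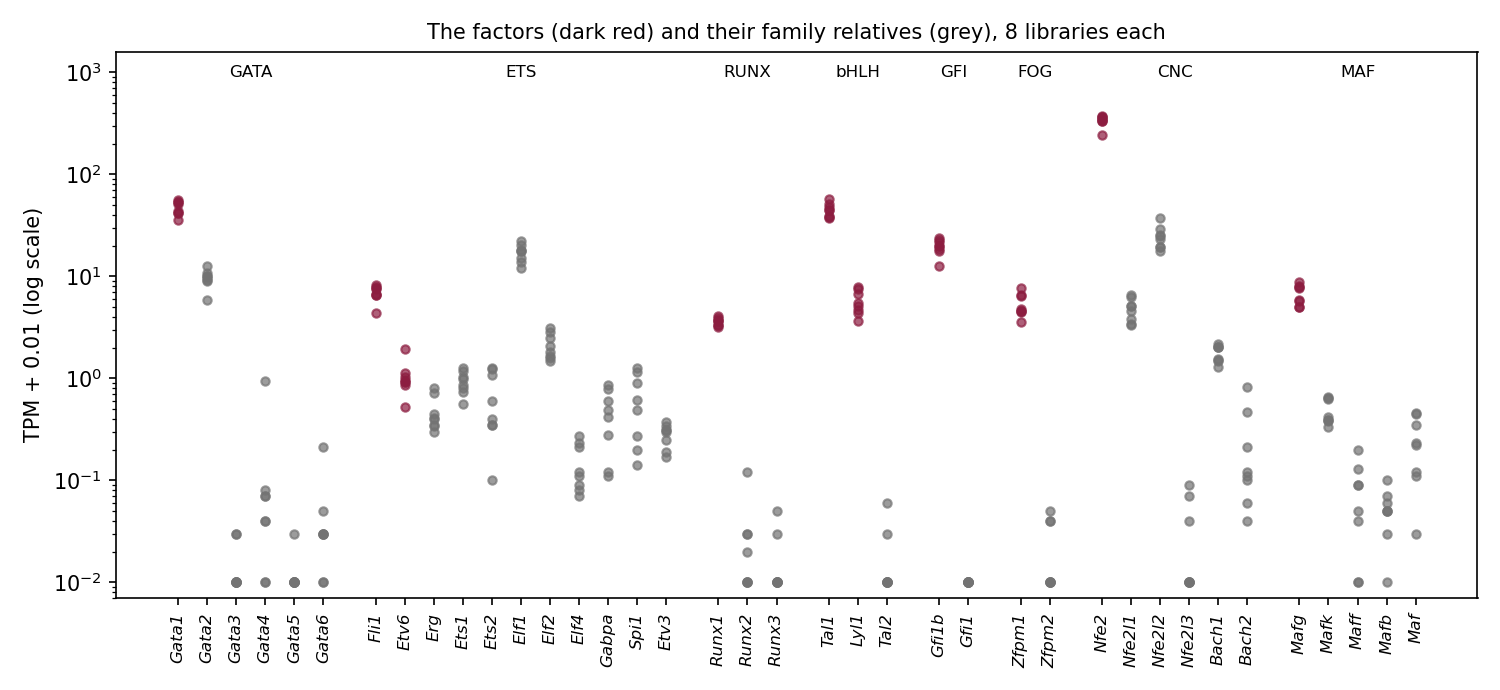
TPM of each factor (dark red) and of its family relatives (grey) in all 8 libraries, on a log scale with a small constant added so that genes listed at 0 can be drawn. Nfe2, Gata1, Tal1, Gfi1b, Runx1, Zfpm1 and Mafg lie above their listed relatives, and Elf1 lies above Fli1 and Etv6.

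The listed proteins that the factors recruit were at low RNA levels, the highest of them between Runx1 (mean 3.62 TPM) and Etv6 (1.03). Of 18 cofactors, the 4 with the highest mean TPM were Rbbp4 (2.76), Chd4 (2.41), Mta2 (2.24) and Gatad2b (1.96), all subunits of the NuRD complex. Lmo2 and Ldb1, which bridge GATA1 and TAL1, were at 1.61 and 1.49 TPM, and Cbfb, the partner of RUNX1, was at 0.300 TPM, below its partner in mean level. Of 10 further factors of megakaryocytes and stem cells, Hhex led with 11.6 TPM, followed by Meis1 (2.69), Srf (2.42) and Ikzf5 (1.71), while Klf1, the red cell factor, had at most 1 count and Myb at most 2.

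None of the 10 factors passed the test for a change between the genotypes. Fitted log2 fold changes (Dnmt3a+/- label minus WT, edgeR's quasi-likelihood test with Benjamini-Hochberg adjustment over 7362 genes) ran from -0.32 for Zfpm1 to 0.37 for Etv6. The lowest adjusted p among the factors was 0.987 (edgeR). Of the 10 estimates 8 were above 0 and 2 (Zfpm1 and Runx1) below, against 3611 of 7362 above 0 over all genes. With 1 library left out, 6 to 8 of the 10 were above 0. Over all genes tested 0 passed the threshold of 0.05 (0%), so this count of 0 is also the background. At an unadjusted p under 0.05 stood 0 factors, against 362 of 7362 genes (4.92%), and DESeq2 called 9 genes, none of them a factor. Without WT replicate 1 edgeR called 135 genes, and without a filter on low counts 250, again with no factor among them. In no factor did the CPM of the groups fail to overlap, against 187 of all genes (2.54%). The median of the 10 estimates was 0.09 and that of all genes was -0.005.

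The intervals show what size of change these libraries leave possible. For Nfe2 the fold change was 0.07 with a 95% interval of -0.18 to 0.32 on the log2 scale, from CPM of 407, 403, 324 and 377 in WT and 439, 367, 438 and 344 in the other group. Gata1 had 0.02 (-0.28 to 0.33), from 81.9, 79.7, 63.6 and 68.0 CPM against 86.9, 65.0, 83.8 and 62.4. In both genes replicates 1 and 3 labelled Dnmt3a+/- were high and replicates 2 and 4 low. Runx1 had -0.08 (-0.35 to 0.19) and Tal1 0.17 (-0.09 to 0.42). With 1 library left out the estimates ran from 0.0057 to 0.13 for Nfe2, from -0.14 to -0.018 for Runx1 and from 0.063 to 0.25 for Tal1. On the linear scale these 4 intervals lay between 0.786-fold (the low end for Runx1) and 1.34-fold (the high end for Tal1).

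Mafg had the smallest p of the 10. Its CPM was 17.3, 21.7, 19.3 and 15.97 in WT and 24.0, 23.6, 25.4 and 18.3 in libraries with the Dnmt3a+/- label, where 3 libraries lay above all WT libraries and replicate 4 lay among them. The log2 fold change was 0.30 (SE 0.15, 95% interval -0.03 to 0.62), with an unadjusted p of 0.068 and an adjusted p of 0.987 (edgeR). With 1 library left out the estimate ran from 0.24 to 0.39, the highest without replicate 4 labelled Dnmt3a+/- (adjusted p 0.711, edgeR).

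For the low factors the intervals were wide. Etv6 had 0.37 (-0.21 to 0.94), from 2.42, 3.46, 2.95 and 3.65 CPM in WT and 4.81, 4.64, 4.55 and 2.21 in the other group. Replicate 4 labelled Dnmt3a+/- was the lowest of all 8, and the other 3 of its group were the highest. Without it the Etv6 estimate was 0.58 (adjusted p 0.711, edgeR), the high end of a range from 0.26 with 1 library left out. In TPM the Etv6 difference was 0.008 by limma on log2(TPM + 1). Fli1 had 0.15 (-0.35 to 0.65), Lyl1 0.10 (-0.39 to 0.59) and Gfi1b 0.08 (-0.25 to 0.41). The Gfi1b difference was larger in TPM, 0.30 by limma on log2(TPM + 1), and 0.28 by edgeR with a transcript length offset, and it passed the threshold in neither. Without WT replicate 1, whose Fli1 CPM of 9.17 compares with 16.2 to 21.9 elsewhere, the Fli1 estimate was -0.05.

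**Figure D3:**
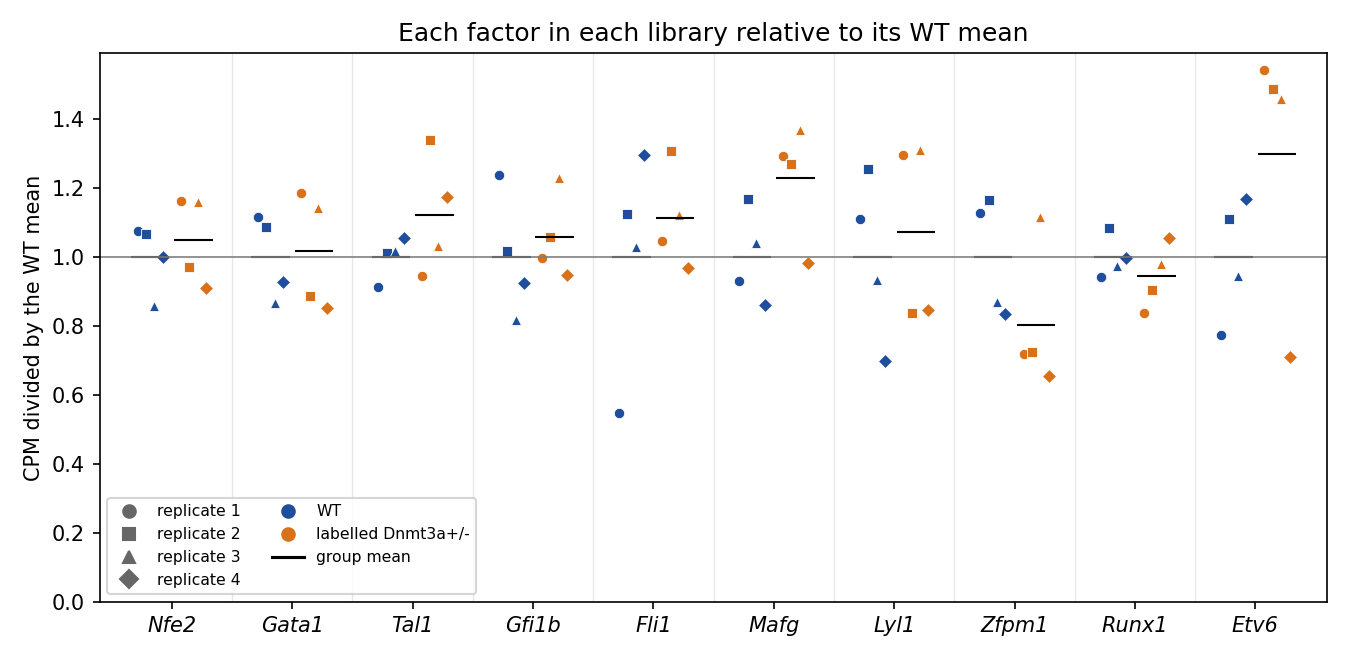
CPM of each factor in each library divided by its WT mean (vertical axis from 0; blue WT, orange labelled Dnmt3a+/-; bars are group means). The groups overlap for all 10 factors, and replicate 4 labelled Dnmt3a+/- lies below the WT mean for 8 of them, all but Runx1 and Tal1.

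**Figure D4:**
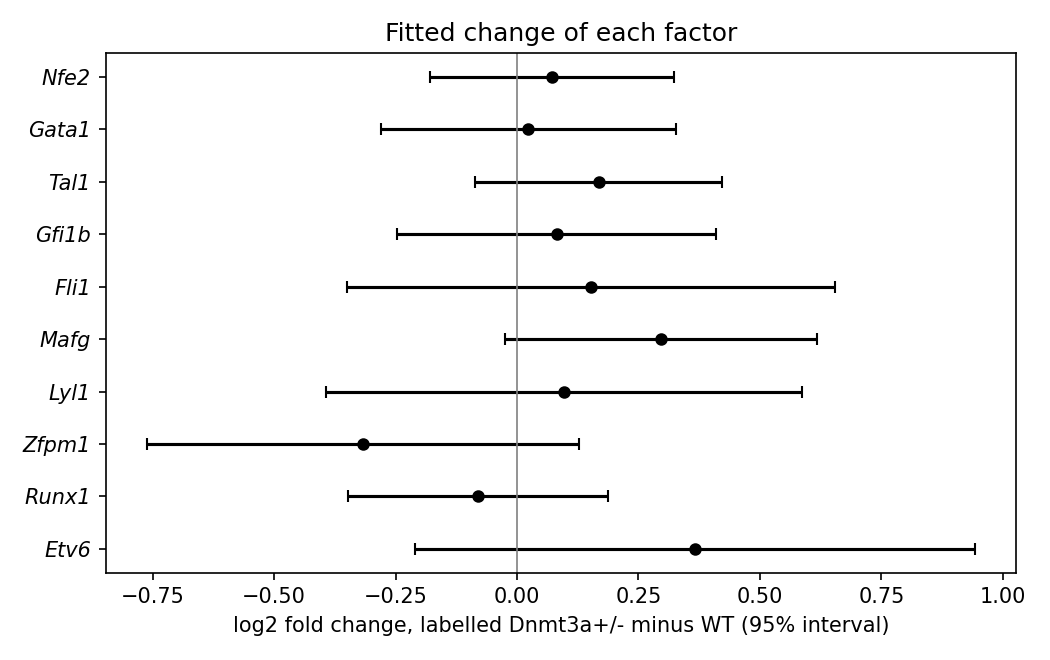
Fitted log2 fold change of each factor (point) with its 95% interval (line), libraries labelled Dnmt3a+/- minus WT. Every interval includes 0, from the narrowest around Nfe2 (-0.18 to 0.32) to the widest around Etv6 (-0.21 to 0.94).

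Libraries differed in how many factors were high. Relative to the WT mean of log2 CPM, all 10 were higher in WT replicate 2 and 9 were higher in replicate 3 labelled Dnmt3a+/-, while 3 were higher in WT replicate 3 and 3 in replicate 4 labelled Dnmt3a+/-. The median deviation of the 10 was 0.23 log2 CPM in replicate 3 labelled Dnmt3a+/-, the highest, and -0.09 in replicate 4, the lowest, so the 2 extremes carried the same label.

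The direction of Zfpm1 depended on the scale. In CPM it was lower in 3 of the 4 libraries labelled Dnmt3a+/-, at 6.0, 6.07 and 5.47, with replicate 3 at 9.34, than in all WT libraries at 9.43, 9.74, 7.28 and 6.98. The fitted log2 fold change was -0.32 (SE 0.20, adjusted p 0.998, edgeR). In TPM it was higher, with a log2 difference of 0.20 by limma on log2(TPM + 1) (adjusted p 0.999). Neither estimate passed the threshold.

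Counts and TPM part ways where the estimated length of the transcripts differs between libraries, and that length can be read, up to a constant, from the ratio of a gene's count to its TPM. For Zfpm1 the implied length, relative to the WT mean, was 1.12, 0.945, 0.810 and 1.17 in WT and 0.750, 0.569, 0.720 and 0.752 in libraries with the Dnmt3a+/- label. The 4 with the Dnmt3a+/- label were all below all 4 WT libraries. Of 4400 genes with at least 1 TPM in every library 97 did not overlap in this measure (2.2%), 48 of them shorter as Zfpm1 was, and Zfpm1 was the only 1 of the 9 factors among the 4400. GENCODE M21 lists 5 transcripts for Zfpm1, 1 coding of 3390 bases and shorter non-coding ones down to 314 bases. Which of them the reads came from was not analysed here.

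The other factors differed in how stable this measure was. Gata1, Tal1, Nfe2 and Lyl1 varied by 1.03, 1.04, 1.10 and 1.12 times between the lowest and the highest library, at or under the median of 1.12 times over the 4400 genes. Runx1 varied by 1.19, Fli1 by 1.39, Gfi1b by 1.44, Mafg by 1.47 and Zfpm1 by 2.05 times. More than 2-fold variation was seen in 199 of the 4400 genes (4.52%). Etv6, under 1 TPM in 5 libraries and so outside the 4400, varied by 2.57 times, which bears on its TPM in WT replicate 4 (1.91 TPM, implied length 0.603). Gfi1b was short in replicates 1 and 2 labelled Dnmt3a+/- (0.755 and 0.805) and at 0.913 to 1.09 in the other 6 libraries.

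**Figure D5:**
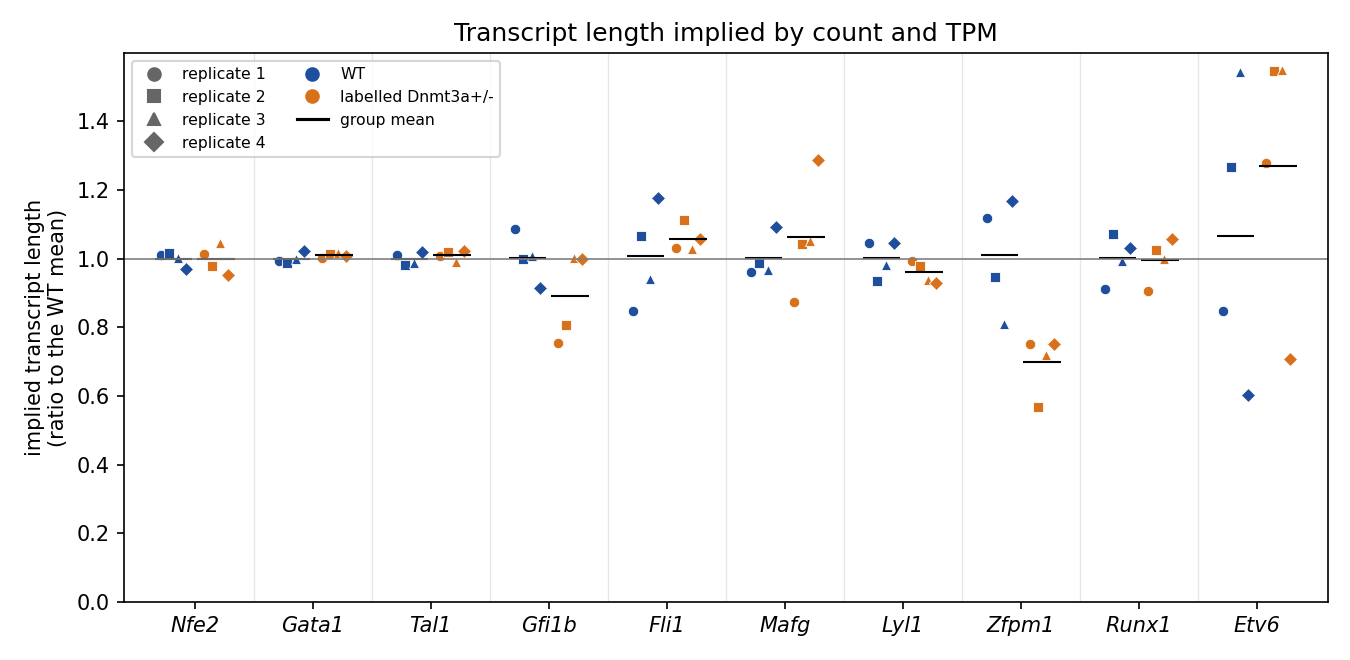
Transcript length implied by count and TPM for each factor, relative to its WT mean (vertical axis from 0; blue WT, orange labelled Dnmt3a+/-; bars are group means). Gata1 and Tal1 are flat, Zfpm1 is at 0.569 to 0.752 in libraries with the Dnmt3a+/- label and 0.810 to 1.17 in WT, and Etv6 scatters in both groups.

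Ratios of factors that pair or oppose each other, 5 in all, were compared within libraries, by exact permutation of the 8 labels (70 arrangements, two-sided, lowest attainable p 0.0286), with adjustment over the 5 ratios. On TPM the largest difference was in Gfi1b to Gata1, with 0.384, 0.351, 0.353 and 0.422 in WT and 0.423, 0.570, 0.413 and 0.426 in libraries with the Dnmt3a+/- label. The groups overlapped through WT replicate 4. The log2 difference was 0.27 (exact permutation p 0.0571, adjusted 0.286), and on CPM, which does not use the estimated length, it was 0.08. Mafg to Nfe2 differed by 0.15 (geometric means 0.0187 and 0.0207, exact permutation p 0.514, adjusted 0.857). Zfpm1 to Gata1 differed by 0.19 (0.103 and 0.118, p 0.429 by the exact permutation test, adjusted 0.857). On CPM the Zfpm1 to Gata1 difference turned to -0.35 (exact permutation p 0.0571, adjusted 0.286), larger in size than that of Gfi1b to Gata1 on TPM. Lyl1 to Tal1 and Fli1 to Etv6 differed by 0.02 and 0.09, with adjusted exact permutation p of 0.914 for both. None of the 5 passed the threshold.

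The lists around the factors gave no adjusted call either. Of the family relatives, 14 of 28 were tested, with 8 estimates above 0 and 6 below and a median of 0.14. The 4 most abundant had log2 fold changes of 0.31 for Nfe2l2, 0.27 for Elf1, 0.25 for Gata2 and 0.22 for Nfe2l1. Ets2, an ETS factor downstream of growth signals, was the 1 relative with an unadjusted p under 0.05, at 2.22 ± 1.15 CPM in WT and 0.811 ± 0.439 in libraries with the Dnmt3a+/- label (log2 fold change -1.42, SE 0.50, edgeR p 0.016, adjusted p 0.758), from 4 to 55 counts. Of the cofactors, 15 of 18 were tested, 4 above 0 and 11 below, with a median of -0.14. Ep300, the acetyltransferase p300, had the only unadjusted p under 0.05 among them, at 4.24 ± 0.521 CPM in WT and 5.77 ± 1.41 (log2 fold change 0.44, SE 0.20, edgeR p 0.048, adjusted p 0.987). The other factors of megakaryocytes and stem cells had 7 of 10 tested, 4 above 0 and 3 below, a median of 0.11 and no unadjusted p under 0.05, with 0.36 for Hhex, -0.10 for Meis1, -0.28 for Srf and 0.25 for Ikzf5.

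The genes that these factors are known to drive in megakaryocytes had, for the most part, far more counts. Of 24 such genes all were tested, 12 above 0 and 12 below, with a median of -0.01 and a range of -0.24 to 0.13. Ppbp and Pf4, the platelet chemokines, had 0.08 and 0.06, Myl9, a myosin light chain, had 0.02, and Clec1b, the receptor CLEC-2, had 0.08. All 24 had an adjusted p of 0.998 or above (edgeR).

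Among the markers of other cell types, the red cell genes differed most in a single library, WT replicate 1. Of 17 red cell genes 10 were tested, 2 above 0 and 8 below, with a median of -0.68, which was 0.41 without WT replicate 1. The 4 with the highest mean TPM were Hba-a2 (log2 fold change -1.01), Hba-a1 (-0.10), Hbb-bs (-2.18) and Hbb-bt (-2.12), whose reads can be shared between near-identical copies. Unadjusted p under 0.05 were found for Alas2 (-2.81) and Bpgm (-2.24), and for Hemgn (0.83), a nuclear protein of blood cell development, at 1.07 ± 0.177 CPM in WT and 1.92 ± 0.351 (edgeR p 0.008, adjusted p 0.647). Since Gata1, Tal1, Gfi1b, Zfpm1 and Nfe2 are also expressed in red cell precursors, their values without WT replicate 1 bear on the comparison, and none of the 10 factors passed the threshold there. Klf1 at no more than 1 count and Rhag at 0 in all libraries give the level of factors and surface proteins restricted to red cell precursors.

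All 8 endothelial genes tested of 11 had estimates below 0, with a median of -0.30 and no unadjusted p under 0.05. The 4 most abundant were Plvap (-0.14), Tie1 (-0.23), Kdr (-0.07) and Egfl7 (-0.002), and Fli1 and Tal1 are also expressed in endothelium. The summed endothelial share of counts was 0.00488% to 0.00699% for WT and 0.00417% to 0.00565% for the Dnmt3a+/- label. All 6 hepatocyte genes had an unadjusted p under 0.05 and estimates below 0, with a median of -3.75, and none had an adjusted p under 0.05. Their summed share in WT replicates 2 to 4 (0.0273%, 0.106% and 0.0931%) lay above all libraries with the Dnmt3a+/- label, and that of WT replicate 1 (0.000987%) did not. Alb (-3.67), Apoa1 (-3.73), Apoa2 (-4.21), Serpina1a (-3.70), Ttr (-3.84) and Fgb (-3.77) each had at most 4 counts in at least 1 library, and Alb reached 15123 in another. Of 8 monocyte and macrophage genes 4 were tested, 3 above 0 and 1 below, with a median of 0.43, led by Lyz2 (4079 TPM, -0.20), Cd68 (0.70), Adgre1 (0.41) and, below the filter, Spi1. The neutrophil, T cell and mast cell lists had no gene tested and 1 to 28, 0 to 2 and 0 to 3 summed counts per library, and the B cell list had 1 of 6 tested, Ebf1 (-0.05). The part of any of these cells in the values of the factors was not tested. In bulk RNA, fewer contributing cells and less RNA per cell cannot be told apart.

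Finally, for each factor the 2 tested genes with the most similar profile over the 8 libraries were sought, by the root mean square difference of centred log2 CPM. Actn4 (0.04) and Nprl3 (0.05) were nearest to Gata1, whose own spread by this measure was 0.18. Dop1b and Rbpms2 were nearest to Nfe2 (0.04 and 0.05, own spread 0.15), and Scamp1 and Acbd3 to Tal1 (0.04 and 0.05, own spread 0.16). Raly was among those nearest to Gfi1b (0.07, own spread 0.19). Hivep1 and Fam168b were nearest to Runx1 (0.06 and 0.07, own spread 0.11), and Ogfod2 and Mark2 to Mafg (0.08 and 0.10, own spread 0.22). The remaining factors had larger own spreads. Rbm42 and Lmna were nearest to Lyl1 (0.10 and 0.11, own spread 0.30), and Pard6a and Zdhhc18 to Zfpm1 (both 0.11, own spread 0.29). Borcs5 and Kif1b were nearest to Fli1 (both 0.13, own spread 0.36), and Cd200r4 and Crtam to Etv6 (0.11 and 0.14, own spread 0.35). No factor was among the nearest genes of another. These are the nearest of 7362 genes over 8 points that share library and depth, and they describe these libraries.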

How the data were processed

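Platelet RNA of 8 mice was compared, 4 per group by the genotype in the labels. The authors deposited, for each gene and library, an estimated count, written as a whole number, and a TPM. The tools named in the submitters' processing notes are RSEM, STAR, cutadapt and DESeq2, with build mm10; versions, roles, annotation and strand setting are not given in the sources used here. Overlapping genes on opposite strands therefore carry uncertainty.

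The estimated counts, already whole, were fitted with edgeR 4.0.16 in R 4.3.3 (TMM, filterByExpr by group with minimum count 10 and minimum total 15, quasi-likelihood test, Benjamini-Hochberg over 7362 genes, threshold 0.05); limma 3.58.1 and DESeq2 1.42.0 served as alternatives. CPM are TMM-scaled. The median SE of a log2 fold change was 0.22. The fit was tested on simulated data. Coordinates are GENCODE M21 on GRCm38, promoters RefSeq.

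The members and gene lists were chosen with earlier results of these data known. The text names the 10 members; of each list, the 4 genes with the highest mean TPM and any with an unadjusted p under 0.05; and, per member, the 2 genes with the nearest profile. One of the latter is not reported here. Genes outside this rule, such as marker genes near 0, were named after their values were seen. The mice are separate animals, and p-values measure the spread between them. Every pair of libraries differed by more than sampling noise (chi-square over its degrees of freedom at least 12.2). Alternatives were other normalizations, filters and tools, a replicate block and leaving out each library.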

Additional observations from a re-analysis of the deposited data

Results flagged for a closer look

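A total of 3 values stood apart from the other libraries of their group, by a gap above Dixon's 95% critical value for groups of 4. Among the 50 groups examined chance alone marks about 1 in 20. Zfpm1 was at 9.34 CPM in replicate 3 labelled Dnmt3a+/- and at 5.47 to 6.07 in the other 3. Without that library its log2 fold change was -0.51 (edgeR adjusted p 0.676), the low end of a range up to -0.23 with 1 library left out. Etv6 was at 2.21 CPM in replicate 4 labelled Dnmt3a+/- and at 4.55 to 4.81 in the other 3. The log2 ratio of Gfi1b to Gata1 TPM was -0.811 in replicate 2 labelled Dnmt3a+/- and -1.28 to -1.23 in the other 3.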

How the results depend on the processing

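No factor passed the threshold under any of the alternatives run. At an unadjusted p under 0.05 stood Mafg with upper-quartile factors, with the replicate block, without WT replicate 2 and without replicate 4 labelled Dnmt3a+/-, Etv6 also without that last library, Tal1 without replicate 1 and Zfpm1 without replicate 3 of that label. The number of all genes past the threshold, 0 in the fit reported, was 250 without a filter on low counts, 9 with DESeq2, and 0 to 135 when 1 library was left out (135 without WT replicate 1 and 1 without replicate 2 labelled Dnmt3a+/-); the cause was not tested. Zfpm1 reversed to 0.20 and 0.23 in TPM (limma, pseudocounts 1 and 0.1) and to 0.21 with a transcript length offset, an alternative chosen after seeing the data, which removes the difference in implied length; Etv6 went to -0.033 with that offset. Leaving out 1 library gave -0.051 to 0.31 for Fli1, -0.050 to 0.10 for Gata1, -0.0012 to 0.20 for Gfi1b and -0.035 to 0.23 for Lyl1. The 5 ratios on CPM reversed for Zfpm1 to Gata1 (-0.35), Lyl1 to Tal1 (-0.056) and Fli1 to Etv6 (-0.11), and with 1 library left out Lyl1 to Tal1 ran from -0.18 to 0.22 and Fli1 to Etv6 from -0.17 to 0.38. The red cell median was -1.57 under a strict filter (at least 1 CPM in all 8 libraries). With a replicate block 0 genes passed, and 494 stood at an unadjusted p under 0.05. The lowest adjusted p of a factor was then 0.721 (edgeR). Same-numbered libraries deviated together only weakly (correlations 0.077, 0.113, 0.114 and -0.098). The labels do not say whether the numbers pair the mice, and these correlations cannot decide it.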
